A study of Sus scrofa with 45 samples.

Results

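WNT10B is a secreted signalling protein of the Wnt family, and its transcript was followed here in the blood of miniature pigs fed a control diet or 1 of 2 diets rich in fat and cholesterol. The gene was chosen by measured values, since its whole blood levels under both diets at week 19 and under HFCSD, the diet with added sucrose, at week 27 were among those furthest below control. All whole blood differences of these weeks, which share those arrays or their controls, are therefore given as a description with no test, and tests of WNT10B are given only for whole blood at week 10 and for white blood cells. WNT10B is 1 of the 2017 genes that could be named on the array, and 2 of 43603 probes name it.

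The study asked how gene expression in blood moves during the feeding of a diet high in fat and cholesterol (HFCD) and of the same kind of diet with sucrose added (HFCSD). RNA was measured on 45 Agilent porcine arrays, read in 1 colour (Cy3). All samples came from males labelled miniature pig, of the Clawn strain according to the methods, with no genetic change in any group. Weeks are counted from the start of the diets. Whole blood, kept in PAXgene tubes, was sampled at weeks 10, 19 and 27 under control feed, HFCD and HFCSD. White blood cells, caught from whole blood with a LeukoLock kit, were sampled at week 27 under the same 3 diets. Of the 12 groups, 9 had 4 arrays. The other groups, with 3 arrays each, were HFCSD at week 19, HFCD at week 27 and HFCSD at week 27, all of whole blood. The labels do not say whether equal replicate numbers, or the whole blood and white blood cell samples of a diet, came from the same pigs, and the methods name 5 pigs per diet. If each array of a group is of its own pig, some pigs gave samples at more than 1 week. Values of week 10 are then not independent of those that chose the gene, and comparisons over time repeat pigs. Both diets were set against the same control arrays, and the number of arrays limits the precision of every value.

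Wnt proteins bind Frizzled receptors together with the co-receptors LRP5 or LRP6. The signal stops a protein complex from marking beta-catenin for breakdown, so that beta-catenin reaches the nucleus and acts with TCF and LEF factors on target genes. WNT10B is known as a Wnt protein that holds back the formation of fat cells and favours the formation of bone, and it is also made by cells of the blood-forming system.

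Both probes were designed on the same mRNA record, which the array files describe as a partial coding sequence, starting at position 1519 for probe A_72_P016651 and at position 288 for probe A_72_P215932. A_72_P016651 was well above background, by the mark of the scanning software, on 44 of 45 arrays. A_72_P215932 was well above background on 1 of 45 arrays, and on 35 arrays its value was no more than a noise estimate by the software. The results therefore rest on A_72_P016651, and a level of WNT10B means the log2 of its intensity after quantile normalization over the 45 arrays. Before normalization its processed intensities ran from 7.82 to 1330.

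At week 10, WNT10B in whole blood of the control pigs had log2 levels of 6.65, 5.22, 5.86 and 6.58, with a mean of 6.08 ± 0.68 (SD, n = 4). Under HFCD the levels were 5.13, 5.68, 5.54 and 7.23 (mean 5.90 ± 0.92, n = 4). Under HFCSD they were 4.84, 4.85, 4.88 and 6.62 (mean 5.30 ± 0.88, n = 4). The ranges of the 3 diets overlapped at this time. Replicate 4 of HFCSD lay far above the other HFCSD arrays, and replicate 4 of HFCD was the highest of all week 10 arrays.

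By week 19 the control levels were 6.79, 7.14, 7.53 and 7.72 (mean 7.29 ± 0.42, n = 4). The HFCD levels were 4.72, 5.14, 4.71 and 4.83 (mean 4.85 ± 0.20, n = 4). The HFCSD levels were 4.86, 5.41 and 5.27 (mean 5.18 ± 0.28, n = 3). Every array of both diets lay below every control array, with the nearest arrays 1.65 apart for HFCD and 1.38 apart for HFCSD. So it was for 4.04% of all probes tested for HFCD and 7.53% for HFCSD. Control replicates 2 to 4 were scanned on another day than the diets, on slides of their own. The HFCD and HFCSD ranges overlapped.

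Week 27 of whole blood gave control levels of 8.01, 7.13, 7.62 and 7.16 (mean 7.48 ± 0.42, n = 4). With HFCD they were 6.49, 6.22 and 6.70 (mean 6.47 ± 0.24, n = 3). With HFCSD they were 3.72, 5.08 and 5.60 (mean 4.80 ± 0.97, n = 3). The 3 diets fell into 3 ranges that did not overlap, control highest and HFCSD lowest. Of all probes tested, 4.41% had every HFCD array and 16.3% every HFCSD array below every control array. For 11.6% every HFCSD array was below every HFCD array. The share of probes with all 3 ranges apart was not counted, and arrays of this week were among those that chose the gene. Replicate 1 of HFCSD, at 3.72, was the array on which WNT10B was not well above background, so that 2 of 3 arrays passed this mark in that group. Its signal did pass a weaker mark of the software, positive and significant against background.

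White blood cells of the control pigs at week 27 had WNT10B levels of 8.94, 8.07, 8.37 and 8.58 (mean 8.49 ± 0.36, n = 4). Those of the HFCD pigs were at 7.53, 6.24, 7.78 and 8.23 (mean 7.45 ± 0.86, n = 4). Those of the HFCSD pigs were at 6.17, 6.17, 7.26 and 7.48 (mean 6.77 ± 0.70, n = 4). All HFCSD arrays lay below all control arrays, the nearest pair 0.59 apart, while 3 of 4 HFCD arrays did and replicate 4 of HFCD lay within the control range. Of all probes tested, 2.25% had every HFCSD array below every control array.

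**Figure D1:**
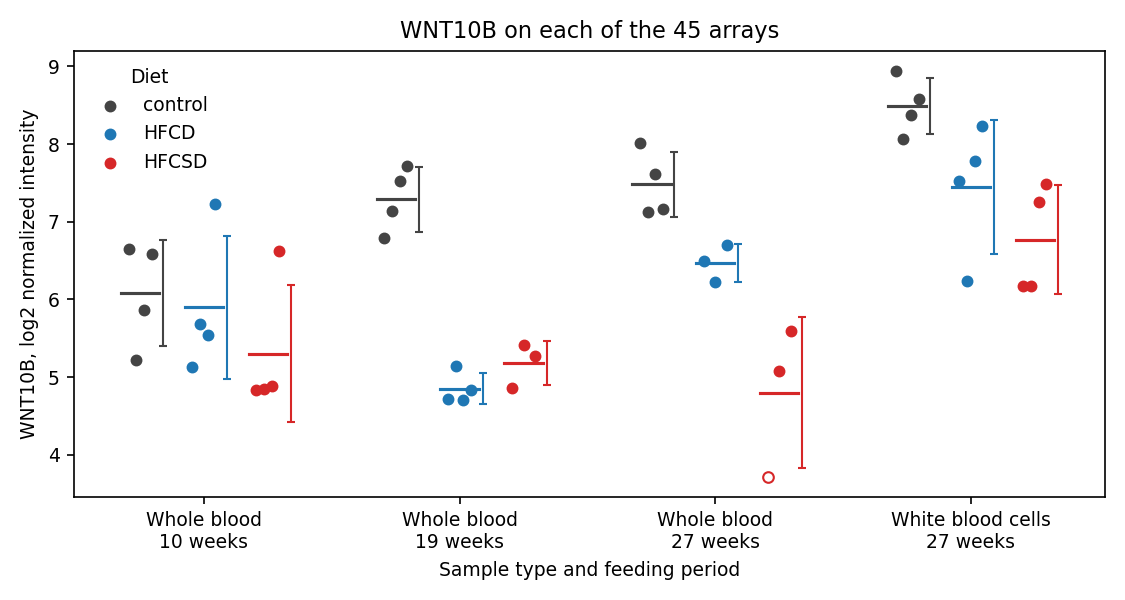
Level of WNT10B (probe A_72_P016651, quantile-normalized log2 intensity) on each of the 45 arrays by sample type, week and diet, with a line at the mean of each group and bars of 1 SD; an open circle is the array on which the probe was not well above background. In whole blood at weeks 19 and 27 all diet arrays sit below all control arrays, and the control mean goes from 6.08 at week 10 to 7.48 at week 27. Between 4.04% and 16.3% of all probes tested were below control in this way, by comparison. Control replicates 2 to 4 of week 19 were scanned on another day than the diets.

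In order of mean level, the 12 groups ran from white blood cells on the control diet (8.49) through whole blood control at week 27 (7.48), white blood cells on HFCD (7.45), whole blood control at week 19 (7.29), white blood cells on HFCSD (6.77), whole blood HFCD at week 27 (6.47), whole blood control at week 10 (6.08), HFCD at week 10 (5.90), HFCSD at week 10 (5.30), HFCSD at week 19 (5.18) and HFCD at week 19 (4.85) to HFCSD at week 27 (4.80). The last place rests in part on the array not well above background, since the other 2 arrays of that group had a mean of 5.34, which would put it at place 9. Of the 11 pairs of neighbours in this order, 10 had overlapping ranges, and 2 had means further apart than the larger SD of the pair. These were white blood cells on the control diet over whole blood control at week 27, by 1.01, and HFCSD over HFCD in whole blood at week 19, by 0.33. The second was 0.16 after normexp, 0.22 with array quality as covariate and 0.21 without replicate 2 of HFCSD, so it did not hold beyond the spread in every setting. The other neighbours did not differ beyond their spread.

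A_72_P215932 was well above background on 1 array only, replicate 1 of the control white blood cells, at 5.46. The other control white blood cell arrays read 2.93, 3.31 and 2.44 with this probe, those of HFCD 2.41, 1.5, 1.48 and 1.53, and those of HFCSD 1.44, 1.51, 1.54 and 2.48. None of these readings is well above background. Those of control, 2.41 of HFCD and 2.48 of HFCSD passed a weaker mark of the software, positive and significant against background. The rest were noise estimates that set no more than an upper bound, so no fold is given.

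The question at week 10 was whether the diets had moved WNT10B early in feeding, and the differences were within the spread of the arrays. WNT10B under HFCD was at 88.2% of control, a log2 difference of −0.18 (SE 0.52, 95% confidence interval −1.31 to 0.95), with 3 of 4 HFCD arrays below the control mean. It did not pass the limma test (adjusted p = 0.907 over 17767 probes tested, 0.802 to 1 over the other settings), and 0.0281% of all probes tested passed in that comparison. Its sign was not stable: with the slide as a block the difference was 0.14, within the 3 slides it was −1.53, 0.39 and 1.01, and it was 0.01 without replicate 1 of control and 0.08 without replicate 1 of HFCD. It was −0.78 with array quality, the percent of spots well above background, added as covariate.

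HFCSD at week 10 had WNT10B at 58.3% of control, a log2 difference of −0.78 (SE 0.52, 95% confidence interval −1.91 to 0.35), with 3 of 4 arrays below all control arrays. The limma test was not passed (adjusted p = 1 over 16198 probes, 0.999 to 1 over the other settings), as for all but 0.0123% of the probes tested. Within the 3 slides the difference was −1.81, −0.34 and 0.40, so that its direction turned on the slide with replicate 4 of HFCSD. It was −1.22 without that array and −0.45 after normexp background correction.

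At week 19 the description that chose the gene was a WNT10B level at 18.4% of control under HFCD, a log2 difference of −2.44 or 5.44-fold, in 4 of 4 arrays. In the same direction, 4.04% of all probes tested had every HFCD array below every control array, and 0.0181% passed limma's adjusted threshold. Under HFCSD the level was at 23.1% of control, a log2 difference of −2.12 or 4.33-fold, in 3 of 3 arrays. There 7.53% of the probes tested had every HFCSD array below every control array, and 0.0175% passed. Limma's count of probes past the threshold was 3 for each diet, and 530 for HFCD and 330 for HFCSD with all 45 arrays in 1 fit. With the slide as a block limma called 0 for each, 400 and 396 had an unadjusted p under 0.05, and the methods' t-test called 0 for each after adjustment, with 1834 and 2772 at an unadjusted p under 0.05. These shares are the background of the choice, and nothing is read from them.

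The size of the week 19 differences of WNT10B depended on batch and on background correction. Control replicates 2 to 4 were scanned on another day and lay on slides of their own, and only control replicate 1, at 6.79, was scanned with the diets. Within that scan day the differences were −1.94 for HFCD and −1.61 for HFCSD, the same as with the scan day as a block. With the slide as a block they were −1.65 and −1.23, and on the 1 slide that holds both HFCD and control the difference was −1.65. After normexp they were −1.34 and −1.17.

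For week 27 the description was a WNT10B level under HFCD at 49.6% of control, a log2 difference of −1.01 or 2.02-fold, in 3 of 3 arrays. Of the probes tested, 4.41% had every HFCD array below every control array and 0.0165% passed limma's adjusted threshold. Under HFCSD the level was at 15.6% of control, a log2 difference of −2.68 or 6.4-fold, in 3 of 3 arrays. The fold includes replicate 1, not well above background, and the difference without it was −2.14. Here 16.3% of the probes tested had every HFCSD array below every control array and 10.6% passed limma's adjusted threshold, 1161 higher and 663 lower. That count of 1824 turned on single arrays, with 95, 217 and 159 without control replicates 1, 2 and 3, 2833 without control replicate 4, 104 and 118 without HFCSD replicates 1 and 2, 2251 without HFCSD replicate 3 and 1019 without HFCD replicate 3. It was 453 with no filter on dim probes. The methods' t-test called 142 after adjustment, with 4706 at an unadjusted p under 0.05. The median difference of all probes tested was −0.21 in this comparison.

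All whole blood arrays of week 27 were scanned on 1 day. Within slides the whole blood differences of WNT10B were −1.37 and −0.54 for HFCD and −2.05 and −2.95 for HFCSD. After normexp they were −0.61 for HFCD and −1.30 for HFCSD. Without replicate 1 of HFCSD, the array on which the gene was not well above background, the HFCSD difference was −2.14. The HFCSD arrays of this week had 38.8% to 39.7% of their spots well above background, and those of control had 38.9% to 50.2%. With this percent added as covariate the HFCSD difference of WNT10B was −2.40, while limma called 0 of all probes tested in place of 1824, with 2839 at an unadjusted p under 0.05 in place of 5524 and 142 by the methods' t-test, which takes no covariate.

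White blood cells gave the other sample type of the same week. WNT10B in HFCSD white blood cells was at 30.3% of control, a log2 difference of −1.72 (SE 0.43, 95% confidence interval −2.66 to −0.79), in 4 of 4 arrays. In that direction 2.25% of the probes tested had every HFCSD array below every control array. The difference did not pass limma's test across all probes (adjusted p = 0.281 over 19105 probes, 0.0797 to 0.592 over the other settings), and 0.0366% of probes did. Among these probes WNT10B had rank 114 by p and rank 19 by the size of the difference below control. Within the 3 slides the difference was −2.59, −0.82 and −1.55, below 0 on each.

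WNT10B in HFCD white blood cells was at 48.5% of control, a log2 difference of −1.05 (SE 0.43, 95% confidence interval −1.98 to −0.11), with 4 of 4 arrays below the control mean. It did not pass limma's test (adjusted p = 0.997 over 18126 probes, 0.643 to 1 over the other settings), and 0.0276% of the probes tested did. Within slides it was −0.98, −0.19 and −2.13, and without replicate 2 of HFCD it was −0.64. With 5 pigs per diet, and if each array is of its own pig, at least 3 control pigs and 2 pigs of each other diet gave both sample types at week 27, so these values are not independent of those that chose the gene. In whole blood and in white blood cells alike, fewer cells that carry the transcript and less of it per cell cannot be told apart.

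**Figure D2:**
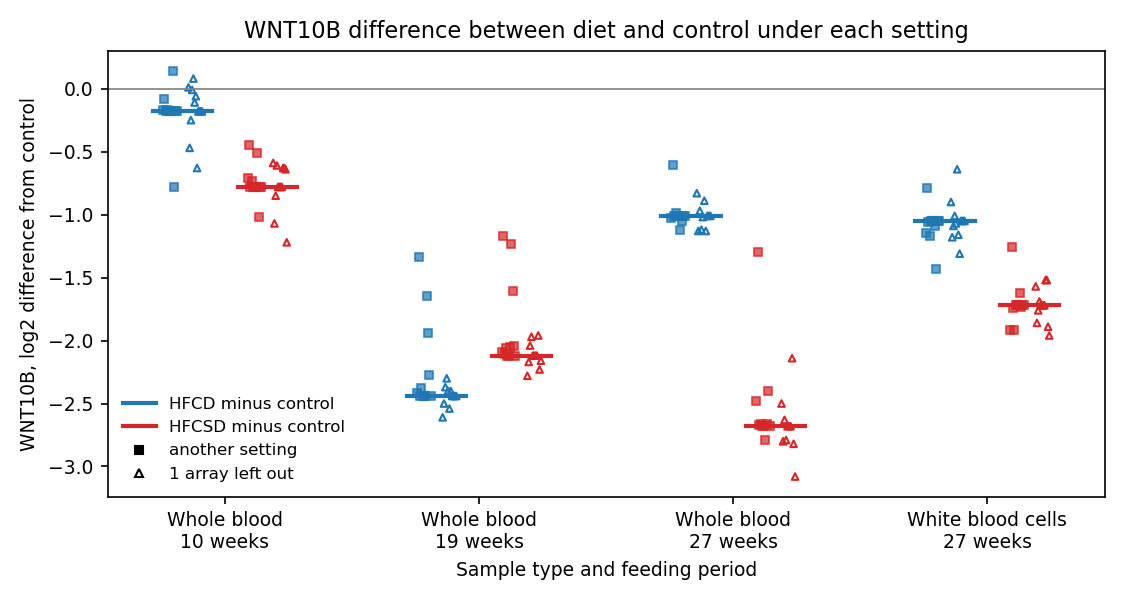
Log2 difference of WNT10B between each diet and control by sample type and week, as a line for the value in the text, squares for the other settings and triangles for fits with 1 array left out. All settings lie below 0 except for HFCD in whole blood at week 10, where they run from −0.78 to 0.14.

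Added sucrose was the difference between the 2 diets, and WNT10B was compared between HFCSD and HFCD directly. At week 10 the level under HFCSD was at 66% of that under HFCD, a log2 difference of −0.60 (95% confidence interval −1.73 to 0.53), with 3 of 4 HFCSD arrays below all HFCD arrays. It did not pass limma's test (adjusted p = 0.809 over 17917 probes, 0.557 to 1 over the other settings). Limma called 0 probes in all (0%), 886 had an unadjusted p under 0.05, and the methods' t-test called 0 after adjustment. Within the 3 slides the difference was −0.28, −0.73 and −0.61. It was −0.15 without replicate 4 of HFCD, −1.04 without replicate 4 of HFCSD and −0.24 with array quality, the percent of spots well above background, added as covariate.

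In white blood cells HFCSD was at 62.5% of HFCD for WNT10B, a log2 difference of −0.68 (95% confidence interval −1.61 to 0.26), with 2 of 4 arrays below all HFCD arrays. It did not pass limma's test (adjusted p = 1 over 18799 probes, 0.933 to 1 over the other settings). Limma called 0 probes in all (0%), 407 had an unadjusted p under 0.05, and the methods' t-test called 0 after adjustment. The within-slide differences were −1.61, −0.63 and 0.59, so the direction was not the same on every slide. The value was −1.08 without replicate 2 of HFCD, −0.42 without replicate 4 of HFCD and −0.30 with the same covariate.

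Whole blood at weeks 19 and 27 is again a description, since arrays of these weeks chose the gene. At week 19 HFCSD lay 0.33 above HFCD in log2 (0.16 after normexp), with overlapping ranges, and within 3 slides by 0.54, 0.15 and 0.58. At week 27 HFCSD was at 31.5% of HFCD, a log2 difference of −1.67 or 3.18-fold, in 3 of 3 arrays without overlap, as for 11.6% of the probes tested. On the 1 slide that holds both diets it was −1.52, after normexp it was −0.70, and without replicate 1 of HFCSD, not well above background, it was −1.13. Whether the difference between the diets differs between weeks was not tested.

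In control whole blood WNT10B was higher at the later weeks. Its mean was 1.22 higher at week 19 than at week 10 (2.32-fold) and 1.40 higher at week 27 than at week 10 (2.64-fold), both without overlap. So were 6.24% of the probes present at weeks 19 or 10 and 12.9% of those present at weeks 27 or 10. Between weeks 27 and 19 the control means differed by 0.19, with overlap (0.01 to 0.33 with 1 array left out). Under HFCD the mean was 1.05 lower in log2 at week 19 than at week 10, with overlap (0.60 lower without replicate 4 of week 10), and 1.62 higher at week 27 than at week 19 (3.07-fold), without overlap, as for 5.53% of probes. Under HFCSD the means at weeks 10, 19 and 27 were 5.30, 5.18 and 4.80, with overlapping ranges, and the last was 5.34 without the array not well above background. The weeks were scanned on different days, so time and scan day cannot be told apart, and these values include the arrays that chose the gene.

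White blood cells had more of the WNT10B signal than whole blood at week 27 under each diet. The log2 difference was 1.01 for control (2.02-fold, without overlap, as for 20.2% of probes), 0.98 for HFCD (1.97-fold, with overlap) and 1.97 for HFCSD (3.91-fold, without overlap, as for 37.1% of probes). Without the whole blood array not well above background the last of these was 1.43, or 2.69-fold. The sample types were extracted with different kits and scanned on different days, so effects of sample type, kit and scan cannot be told apart.

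The rest of the Wnt pathway was described with a list of 119 genes, of which 39 have a named probe on the array (48 probes), 23 were well above background on every array and 4 on none. The diets were compared with control over 30 to 32 probes of this list that met the same rule of presence as WNT10B. Limma called 0 of them in each of the 8 comparisons, and so did the methods' t-test after adjustment. At an unadjusted p under 0.05 there were 3, 4, 1 and 3 probes for HFCD in whole blood at weeks 10, 19 and 27 and in white blood cells, and 0, 2, 9 and 5 for HFCSD in the same order. Over all probes tested the shares at that threshold were 10%, 12.5%, 5.55% and 4.73% for HFCD and 1.73%, 11.9%, 32.2% and 11.3% for HFCSD. The share of all probes that passed limma's adjusted threshold was 10.6% for HFCSD in whole blood at week 27. It was between 0.0123% and 0.0366% in each other comparison with control. For HFCSD in whole blood at week 27 the number of list probes that limma called after adjustment changed with the setting. In place of 0 (9 at an unadjusted p under 0.05, 0 by the methods' t-test after adjustment) it was 1 with the 75th percentile as scale, 2 with normexp, 3 with the slide as a block and 2 with all 45 arrays in 1 fit. Of all 17135 probes tested limma called 1924, 1701, 2427 and 2058 in these settings. The list count was 3 without control replicate 4, 1 without HFCD replicate 1, 2 without HFCD replicate 2 and 3 without HFCSD replicate 3. Of all probes limma then called 2833 of 19570, 1982 of 17135, 2242 of 17135 and 2251 of 17434. The genes that passed in at least 1 setting, known only after their values were seen, were PPP2CA, CEBPB, DVL2, FBXW11 and CTNNB1 (lower under HFCSD) and CD44, PPARD and WNT5B (higher).

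The median difference of the list stayed close to that of all probes tested. In HFCD it was 0.13 beside 0.09 at week 10, 0.07 beside −0.03 at week 19, −0.07 beside −0.03 at week 27 and 0.05 beside 0.02 in white blood cells. In HFCSD it was −0.06 beside −0.01, −0.02 beside 0.04, −0.23 beside −0.21 and 0.01 beside 0.01. WNT10B had differences of −0.18, −2.44, −1.01 and −1.05 for HFCD and −0.78, −2.12, −2.68 and −1.72 for HFCSD. The lowest list values in the same order were −0.82 (BIRC5), −0.76 (LEP), −0.46 (DVL2) and −0.43 (WNT5B), and then −0.63 (LEP), −1.77 (PPARD), −1.0 (CEBPB) and −0.55 (PPP2R5A). The highest were 0.60 (JUN), 0.89 (MYC), 1.15 and 1.25 (both TCF7L2) for HFCD, and 0.28 (JUN), 0.79 (PPP2CA), 1.98 (CD44) and 0.75 (CSNK1A1) for HFCSD. These ends moved with the setting. With the slide as a block LEP at week 19 was at −0.03 and MYC at 0.14, and after normexp TCF7L2 was at 0.39 and 0.44 and DVL2 at −0.24. PPARD was at −3.29 with the scan day as a block and at −0.69 after normexp, and with array quality added as covariate BIRC5 was at −0.22, CEBPB at −0.53 and CD44 at 0.93. WNT5B was at −0.16 without replicate 2 of HFCD and −0.69 without replicate 3, and for HFCSD at week 10 LEP was at −1.11 without control replicate 1 and JUN at 0.14 without control replicate 3. The probe of TCF7L2 was well above background on 35 of 45 arrays, that of PPARD on 30 and that of CSNK1A1 on 42, so their differences may rest in part on readings that are no measured level. The 0.79 of PPP2CA was 0.16 with the scan day as a block, and the other probe of this gene was at 0.10. The smallest adjusted p of the list was 0.0566, for PPARD under HFCSD in whole blood at week 27.

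Among ligands, 2 of 22 genes other than WNT10B have a probe. WNT5B, a Wnt ligand that mostly acts without beta-catenin, had group means between 10.56 (white blood cells, HFCSD) and 12 (whole blood, HFCSD at week 27). RSPO1, which strengthens Wnt signals at the receptor, had group means between 5.23 and 5.91. Of the 3 genes of ligand secretion none has a named probe. Of the receptors, 6 of 20 genes have a probe, and ZNRF3, which removes Frizzled receptors from the cell surface, had means between 5.90 and 6.76. FZD10, a Frizzled receptor, had means between 4.11 (white blood cells, HFCD) and 6.08 (whole blood, HFCSD at week 27). The secreted inhibitors and their partners have 2 of 13 genes with a probe, KREMEN1 and DKK3, and both were well above background on no array.

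Of the genes that regulate beta-catenin, 8 of 21 have a probe. PPP2CA, a catalytic subunit of protein phosphatase 2A, had means between 10.65 (whole blood, HFCSD at week 27) and 11.68 (white blood cells, control). DVL1, which relays the signal from Frizzled, had means between 10.43 and 11.88. Of the nuclear factors, 5 of 14 have a probe, and LEF1 had means between 12.28 and 13.40 in whole blood and between 10.06 and 10.28 in white blood cells. TCF7, a factor of the same family, had means between 8.76 and 9.83. Of the target genes 8 of 12 have a probe, among them CCND2, a cyclin, with means between 11.50 and 12.74, and BIRC5, also called survivin, with means between 9.39 and 12.24. Of the regulators of fat and bone cells 8 of 14 have a probe, and the factors CEBPB and CEBPA, which drive fat cell formation, had means between 11.39 and 13.57 and between 6.98 and 8.93. The means of LEF1, FZD10 and BIRC5 were lower in white blood cells than in any whole blood group, while WNT10B, CEBPB, CEBPA, DVL1, ZNRF3 and PPP2CA had their highest mean of each diet there.

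The genes most like WNT10B were sought among 1956 probes of 1319 genes by Pearson correlation over the 45 arrays. These arrays share diets, sample types, slides and scan days, so the correlations describe the series and carry no p. The median r over the candidates was 0.204, and the middle 90% ran from −0.609 to 0.643. The highest was SLC11A1, a metal transporter of the phagosome membrane in macrophages, with r = 0.831 (rho = 0.839). IFNGR2, a chain of the interferon gamma receptor, had r = 0.822 (rho = 0.818). The probe of FOLR1, which the array files call a secreted folate binding protein, had r = 0.819 (rho = 0.843).

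SLC7A7, a transporter of basic amino acids, followed with r = 0.817 (rho = 0.809), and ADA2, an extracellular adenosine deaminase, with r = 0.816 (rho = 0.821). Within groups, as the correlation of deviations from the group means, these 5 genes had r between 0.505 and 0.671 with WNT10B, and over the 33 whole blood arrays between 0.752 and 0.796. At the other end stood GSTO1, a glutathione transferase of the omega class (r = −0.853, rho = −0.821), a probe for an expressed sequence tag that the files name SOX-6 (r = −0.812, rho = −0.8) and DHRS4, a carbonyl reductase (r = −0.806, rho = −0.83). The SOX-6 probe was well above background on 31 of 45 arrays and on 3 of 12 white blood cell arrays, and that of DHRS4 on 36 and 10, so their correlations rest in part on readings that are no measured level. Their within-group values were weaker, at −0.535, −0.293 and −0.361. GSTO1 had group means from 9.20 in white blood cells on control, where WNT10B was highest, to 11.49 in whole blood on HFCSD at week 19.

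Blood is a mixture of cells, so lists of cell type markers were read beside WNT10B. Of 72 marker genes 39 have a named probe, and COL1A1, COL1A2, ALB, TTR, LPL and PLIN1 were well above background on no array. Monocyte markers (LYZ, CD14 and CD163, 3 of 5 genes with a probe) moved most closely with WNT10B. Over the 45 arrays, sharing diets, sample types and slides, WNT10B and the mean of this list had r = 0.718 and rho = 0.721, and within groups r = 0.558. The correlation was 0.566 over the 33 whole blood arrays and 0.572 over the 12 white blood cell arrays.

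The mean log2 level of the monocyte list was 10.09 ± 0.48, 10.59 ± 0.31 and 10.66 ± 0.34 in control whole blood at weeks 10, 19 and 27 and 11.52 ± 0.49 in control white blood cells. Under HFCD it was 10.07 ± 0.61, 9.97 ± 0.65, 10.83 ± 0.19 and 11.37 ± 0.49 in the same order, and under HFCSD 9.99 ± 0.40, 10.29 ± 0.54, 10.47 ± 0.56 and 11.06 ± 0.82. Its differences from control were thus −0.02, −0.61, 0.17 and −0.15 for HFCD and −0.10, −0.29, −0.19 and −0.47 for HFCSD. The genes of the list differed, with CD14 at −1.63 and LYZ at 0.94 for HFCSD at week 19. Limma called 0 of the 24 tests of single genes of this list, 1 had an unadjusted p under 0.05, and the methods' t-test called 0 after adjustment. The part of monocyte number in the level of WNT10B was not tested.

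Platelet markers (5 of 6 genes with a probe) had a list mean below control in the 8 comparisons, and 36 of the 40 values of single genes were below it. Over the same comparisons 50.3% of all probes tested were below control, and 11.2% had an unadjusted p under 0.05. For platelet genes limma called 0 of these 40, 8 had an unadjusted p under 0.05, and the methods' t-test called 0 after adjustment. The list differences were −0.75, −1.20, −0.90 and −0.88 for HFCD and −0.16, −0.41, −0.91 and −0.42 for HFCSD. Their mean level was 11.43 ± 0.23, 11.19 ± 0.10, 11.54 ± 0.17 and 11.58 ± 2.04 in the control groups, 10.68 ± 0.11, 9.99 ± 1.44, 10.64 ± 0.20 and 10.70 ± 2.11 under HFCD and 11.27 ± 0.39, 10.78 ± 0.69, 10.63 ± 1.16 and 11.16 ± 1.14 under HFCSD. Across all 45 arrays the list had r = 0.223 (rho = 0.269) with WNT10B, and −0.0462 within groups. Smooth muscle and vessel wall markers (DES, MGP and CNN1, 3 of 6 genes) had differences of −0.89, −1.57, −0.94 and −0.65 for HFCD and −0.29, −1.10, −0.25 and −0.52 for HFCSD, of which −0.25 became 0.03, −1.57 became −0.73, −0.94 became −0.49 and −1.10 became −0.64 after normexp. At week 19 CNN1 was at −2.60 for HFCD and −1.64 for HFCSD, MGP at −1.91 and −0.91, and DES at −0.21 and −0.73. The CNN1 probe was well above background on 38 of 45 arrays, so its differences may rest in part on readings below that mark. For HFCSD at week 27 the list mean hides genes that differed, with DES at 2.04, MGP at −1.36 and CNN1 at −1.44. Of 24 values of single genes 22 were below control. Of 23 tests of them limma called 1, DES in that comparison, where it called 10.6% of all probes tested. With array quality as covariate it called 0 of all probes there, so the call of DES was lost. Of the 23 tests of these genes 10 had an unadjusted p under 0.05, and the methods' t-test called 0 after adjustment. Their control means were 8.08 ± 0.21, 8.26 ± 0.54, 8.01 ± 0.45 and 7.92 ± 1.30, those under HFCD 7.19 ± 0.40, 6.69 ± 1.17, 7.08 ± 0.32 and 7.28 ± 1.27, and those under HFCSD 7.79 ± 0.27, 7.16 ± 0.55, 7.76 ± 0.52 and 7.40 ± 0.33. Their r with WNT10B was 0.289 (rho = 0.328), and 0.129 within groups. T cell markers (7 of 8 genes) had list differences of 0.22, 0.67, 0.36 and 0.23 for HFCD and 0.01, 0.49, 0.34 and 0.27 for HFCSD, where 0.01 became −0.01 with the 75th percentile as scale and the week 27 whole blood values became 0.21 and 0.20 after normexp. Not all genes were above control, and CD3D was at −0.23 for HFCD and −0.50 for HFCSD at week 27. Of 51 tests of single genes limma called 0, 8 had an unadjusted p under 0.05 (6 of them at week 19, where 12.5% and 11.9% of all probes did), and the methods' t-test called 0 after adjustment. Their r with WNT10B was 0.0743 (rho = 0.14) over all arrays, 0.0699 within groups, −0.334 over the 33 whole blood arrays and −0.668 over the 12 white blood cell arrays. The part of these cells in the level of WNT10B was not tested.

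The other lists had fewer genes to read. WNT10B had r = 0.407 (rho = 0.385) with NK cell markers (3 of 5 genes) and 0.0528 (rho = 0.113) with neutrophil markers (MMP9 and LTF, 2 of 7). It had r = −0.401 (rho = −0.425) with the liver list (TF and APOC3 read, 5 of 7 with a probe) and −0.609 (rho = −0.585) with the connective tissue gene DCN. For single genes of the leukocyte (LCP1) and adipose (LEP) lists r was −0.00533 and −0.14, with rho of −0.00764 and −0.109. For HFCSD in whole blood at week 27, where WNT10B was at −2.68, the liver list was at 1.01 (0.55 after normexp) and DCN at 2.47 (1.96 after normexp). Of the liver genes limma called APOC3 there, at 1.96, while TF was at 0.06, and the methods' t-test called neither after adjustment. Limma called 10.6% of all probes tested in that comparison. With array quality as covariate it called 0 of all probes, so the call of APOC3 was lost. At week 19 the liver list was at −0.29 for HFCD and −0.75 for HFCSD, and DCN at 0.58 and −0.76. After normexp these were −0.14, −0.42, 0.85 and −0.47. Over the 8 comparisons 12 of 16 values of liver genes and 3 of 8 values of DCN were below control. The part of these tissues in the level of WNT10B was not tested. Within groups the correlation with DCN was −0.122, that with the liver list 0.00896 and that with NK cell markers −0.247, so those over all arrays follow the groups. The erythroid list has 1 of 10 genes with a named probe, and it was not well above background on every array of any group.

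Slides and array quality were read beside WNT10B as well. The 45 arrays lay on 16 slides and were scanned on 5 days. On each array between 35.4% and 53.3% of spots (median 43.9%) passed the well above background mark. Over the 45 arrays WNT10B had r = 0.5 with this share, and 0.256 within groups.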

How the data were processed

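The authors deposited, for each of 45 arrays, the spot intensities written by Feature Extraction (version 10.5.1.1 per the file headers), with the background already subtracted within the array. The deposited series table holds intensities that the authors had quantile normalized, on a linear scale (column medians 0.0998 to 0.101). Only its log2 was used, as an alternative, and the constant that sets its scale stays unknown. Control spots and outlier spots were left out, processed intensities were taken to log2, quantile normalized over all arrays, and averaged per probe. Groups (sample type, week and diet) came from the sample labels.

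A probe was tested where, in 1 or both of the groups compared, all usable arrays (at least 2) had it well above background. Diets were compared within a sample type and week by limma 3.58.1 in R 4.3.3, on its 3 diet groups, two-sided, with Benjamini-Hochberg adjustment at 0.05 over all probes tested. The methods' t-test was run on the same values with the same adjustment, while the methods took an unadjusted p and a fold as threshold. Fits were tested on simulated data. The labels number males within a group, and p-values measure the spread between these samples.

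WNT10B and the lists were chosen with earlier results of these data known. Genes named were WNT10B, in each role of the Wnt list the 2 present on most arrays, the extremes of each comparison, and the 5 most and 3 least correlated genes. Names came from RefSeq accessions (2032 of 2103 matched in tables of Sscrofa11.1), gene names and descriptions, for 2972 of 43603 probes. A marker list was read as the mean of its genes, each by its probe present on the most arrays (ties by level), for genes present on all arrays of a group. The result of 1 marker list and the probe sequences are not reported here. Alternatives were 75th percentile scaling, normexp (offset 50), the series table, normalization within a fit, presence rules, replicate, slide and scan day blocks, all arrays in 1 fit, array quality as a covariate and each array left out.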

Additional observations from a re-analysis of the deposited data

Results flagged for a closer look

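Groups of 4 arrays were looked at for 13 genes, WNT10B with both probes and the named Wnt list genes other than KREMEN1 and DKK3. An array was singled out by the 95% critical value of Dixon's test. This test takes the gap to the nearest other array as a share of the range of the group. Chance flags about 1 in 20 groups, and 6 of 118 groups were singled out, 1 of them among the 9 groups of A_72_P016651. WNT10B in whole blood on HFCSD at week 10 stood at 6.62 in replicate 4, with the other arrays between 4.84 and 4.88. In whole blood on HFCD at week 19, replicate 1 had PPP2CA at 12 (others 10.77 to 10.94) and WNT5B at 9.79 (others 11.96 to 12.14). WNT5B also stood at 11.55 in replicate 1 of control whole blood at week 27 (others 10.90 to 11.01). In whole blood on HFCSD at week 10, TCF7 stood at 9.11 in replicate 2 (others 9.89 to 9.95) and CCND2 at 11.59 in replicate 4 (others 11.93 to 12). All values are log2 levels.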

How the results depend on the processing

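Of 129 values of WNT10B under other settings, 119 kept their direction and their side of the threshold or stayed within 1 SD, and so did 133 of 135 values with 1 array left out. Leaving out an array of the diet not compared cannot move a difference, and neither can the presence rules or 1 fit of all arrays. Such values are among those counted, here and for the list genes below, so the counts overstate how stable the differences are. No tested difference of WNT10B passed under any setting. For HFCD at week 10 in whole blood the difference (−0.18) was 0.14 with the slide as a block and ran from −0.63 to 0.08 with 1 array left out. At week 19 the differences for HFCD (−2.44) and HFCSD (−2.12) were −1.34 and −1.17 with normexp, −1.65 and −1.23 with the slide as a block and −1.94 and −1.61 with the scan day as a block. At week 27 in whole blood normexp gave −0.61 for HFCD (−1.01), −1.30 for HFCSD (−2.68) and −0.70 for HFCSD against HFCD (−1.67). The causes were not tested.

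Of the 90 counts of Wnt list genes called under other settings, 85 were 0 as reported, and so were 86 of 90 with 1 array left out. For HFCSD at week 27 in whole blood the count was 1 with the 75th percentile, 2 with normexp, 3 with the slide as a block, 2 with all 45 arrays in 1 fit, and 0 to 3 with 1 array left out. Of all 17135 probes tested limma called 1924, 1701, 2427 and 2058 in these settings, and 95 to 2833 probes with 1 array left out. The replicate number as a block gave a list count of 2 there and changed no other list count and no call of WNT10B. Over all probes it took limma's counts from 1824 to 1952 there, from 7 to 3 for HFCSD in white blood cells and from 2 to 3 for HFCSD at week 10. From 3 each it took those of HFCD and HFCSD at week 19 and HFCD at week 27 to 0, where 1705, 1306 and 1342 had an unadjusted p under 0.05 in limma and the methods' t-test called 0 after adjustment. Equal numbers were compared only between diets of the same week and sample type. Whether a number follows a pig over weeks or sample types was not tested. Of the 43 pairs with equal numbers, 17 had deviations correlated above 0.1 (r from −0.639 to 0.75), and 14 of 45 arrays correlated best with their own number. In whole blood at week 10 it was 8 of 12 pairs, with a median r of 0.222 beside −0.139 for other pairs. There the block took the unadjusted p of WNT10B under HFCSD in limma from 0.158 to 0.0377, with an adjusted p of 1 in both. With that block WNT10B in HFCSD white blood cells was at −1.72. Of 180 values of the lowest and highest list genes, 176 kept direction and side, and CEBPB and CD44 for HFCSD at week 27 passed in the other 4. The scan day could serve as a block at week 19 only. Dim spots set the lower limit of these arrays, and for A_72_P215932 they left 1 reading well above background.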
